A study of Mus musculus with 8 samples.

Results

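Endothelin, angiotensin, apelin, adrenomedullin and endothelial nitric oxide form the main local vasoactive systems of the heart. This account follows 10 of their genes in single nuclei of adult mouse hearts: the ligand genes Edn1, Apln and Adm, the processing enzymes Ece1 and Ace, the receptors Ednra, Ednrb, Agtr1a and Aplnr, and the nitric oxide synthase Nos3. They were found by gene symbol among the 32285 genes of the count matrices, and all 10 had UMIs (molecules counted once by their molecular identifier). The series holds hearts of female and male mice, either non-transgenic (labelled nTg) or carrying a transgene for constitutive expression of Ccna2 (labelled Tg), the gene of cyclin A2, which drives cells through the cell cycle. The labels give neither the promoter that drives the transgene nor the age beyond adult, the strain or the number of hearts per library, and no treatment, so the spread between replicates may be technical. Of 8 libraries, 5 were used: 1 labelled nTg female (nTg female 1), a pair labelled Tg female (1 and 2) and a pair labelled Tg male (1 and 2).

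Ccna2 went against 2 of these labels. In cardiomyocyte nuclei it stood at 444 CPM (UMIs per 1000000 UMIs of that cell type and library) in the library labelled nTg female 1 and at 0.524 CPM in the library labelled Tg female 1. It stood at 825, 231 and 143 CPM in Tg female 2, Tg male 1 and Tg male 2, so libraries are named by their label only. The labelled sex was borne out: Xist was at 1277 to 1469 CPM in the 3 libraries labelled female and at 0.335 and 8.18 CPM in the 2 labelled male, and Uty was at 0.398 to 0.811 CPM against 218 and 228 CPM. The 5 libraries held 25045167 to 38593706 UMIs, and 34224 nuclei were kept, with medians of 2079 to 3053 UMIs per nucleus. Any 2 libraries shared 14 to 28 barcodes, at most 0.341% of the smaller library. Nuclei were sorted into 10 types from marker genes, of which 73 of 78 were highest in the type they mark and 0 were at 0 in it. Because the same markers named the clusters, these counts are no independent check of the names. The types are fibroblast-like (12659 nuclei), endothelial-like (7119, the blood vessel lining), cardiomyocyte-like (6541), macrophage-like (2702), pericyte-like (2180), endocardial-like (1339, the lining of the heart chambers), lymphatic endothelial-like (765), smooth muscle-like (520), Schwann-like (170) and mesothelial-like (102) nuclei, named below without the suffix. The macrophage type was mixed. Over the libraries its summed markers of B lymphocytes were at 641 to 1340 CPM and those of MHC class II myeloid cells at 1383 to 2681 CPM. Markers of T or NK lymphocytes summed to 144 to 363 CPM there, beside 10225 to 14685 CPM for the macrophage markers.

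As background, endothelin-1 is made by endothelium as a precursor that Ece1 cleaves, and it contracts smooth muscle through the receptor encoded by Ednra, while the receptor encoded by Ednrb on endothelium drives nitric oxide release and clears the peptide. Ace converts angiotensin I to angiotensin II, which acts through the type 1 receptor encoded by Agtr1a. Apelin, through Aplnr, and adrenomedullin, through Calcrl with a Ramp partner, mostly relax vessels, and nitric oxide from Nos3 activates soluble guanylyl cyclase in the cells around the vessel.

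Within the endothelium, Edn1 and Ace were high in the same sub-clusters, and Apln and Adm in another, as described further on. The 250 bases before the first listed start of these 4 genes are shown so that the promoters of each pair can be set side by side. RefSeq (GRCm38.p6) held a promoter for 7 of the 10 genes. The windows are at chr13:42301226-42301475 (plus strand) for Edn1, chr11:105967698-105967947 (plus strand, the first of 2 starts listed) for Ace, chrX:48034854-48035103 (minus strand) for Apln and chr7:110627407-110627656 (plus strand) for Adm. Capitals mark matches to any of the searched motifs:
Edn1: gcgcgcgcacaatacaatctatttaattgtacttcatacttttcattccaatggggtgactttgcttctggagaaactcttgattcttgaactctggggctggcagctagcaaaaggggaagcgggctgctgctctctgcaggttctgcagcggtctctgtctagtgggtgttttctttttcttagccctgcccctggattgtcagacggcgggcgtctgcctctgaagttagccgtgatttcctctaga
Ace: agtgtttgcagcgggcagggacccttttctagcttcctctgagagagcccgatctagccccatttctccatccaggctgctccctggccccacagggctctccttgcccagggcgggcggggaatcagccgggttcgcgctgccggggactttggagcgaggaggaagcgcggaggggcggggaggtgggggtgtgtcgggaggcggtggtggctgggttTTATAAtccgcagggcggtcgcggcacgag
Apln: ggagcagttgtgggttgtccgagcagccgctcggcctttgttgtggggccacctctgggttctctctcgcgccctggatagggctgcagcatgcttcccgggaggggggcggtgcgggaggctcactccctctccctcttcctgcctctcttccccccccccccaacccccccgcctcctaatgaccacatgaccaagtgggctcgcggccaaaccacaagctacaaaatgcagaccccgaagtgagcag
Adm: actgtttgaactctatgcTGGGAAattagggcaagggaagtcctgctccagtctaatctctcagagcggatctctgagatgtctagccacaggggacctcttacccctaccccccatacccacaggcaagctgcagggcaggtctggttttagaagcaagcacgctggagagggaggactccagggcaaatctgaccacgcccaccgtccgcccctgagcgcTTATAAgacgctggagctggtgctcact
The motifs, searched on both strands, were ACGTG (hypoxia response core), GATAA (GATA factors), TGANTCA (AP-1), TGGGAA (RBPJ core) and TATAA (TATA box). Of 32851 promoters of the same length, 16.6% held the first, 22.6% the second, 6.75% the AP-1 motif, 21.6% the RBPJ core and 22.8% the TATA box. TATAA was found in Ace and in Adm, at 2 overlapping places in each, beginning 30 and 29 bases before the start in Ace and 28 and 27 in Adm. TGGGAA was found in Adm only, 232 bases before its start. The windows of Edn1 and Apln held none of the 5 motifs. Neither pair shared a motif that the other pair lacked.

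The first question was which cell types carry the ligands, enzymes and receptors. Endocardial nuclei had the highest mean level of 4 of the 10 genes (Edn1, Ece1, Ednrb and Nos3), pericytes of 2 (Ednra and Agtr1a), endothelial nuclei of 2 (Apln and Aplnr), fibroblasts of 1 (Ace) and lymphatic endothelial nuclei of 1 (Adm). Levels below are means of the CPM of 5 libraries with their SD, and types were compared by the order and overlap of these values, without a test, because types were defined in the same nuclei. The 10 genes were left out of the genes used for clustering. The heat map of mean levels shows the 100 combinations of gene and type.

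**Figure D1:**
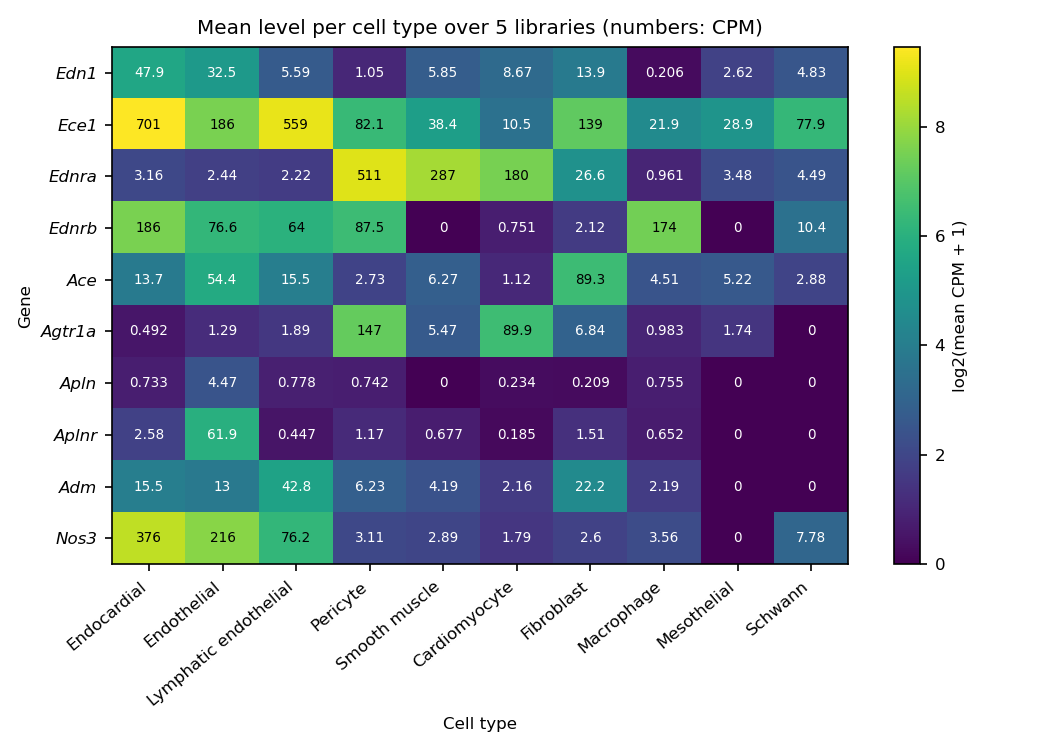
Mean level of the 10 genes (vertical) in 10 cell types (horizontal) over 5 libraries, as CPM in each cell and as log2(mean CPM + 1) in colour. The endothelin receptor Ednra is highest in pericytes, smooth muscle and cardiomyocytes, and Ednrb in endocardial nuclei and macrophages.

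Edn1 (ENSMUSG00000021367, chromosome 13, 42301476 to 42307990), the endothelin-1 gene, was at 34.2, 71.7, 61.0, 29.5 and 43.2 CPM in endocardial nuclei, in the order nTg female 1, the pair labelled Tg female (1, then 2) and the pair labelled Tg male (1, then 2), which is kept throughout. In endothelial nuclei it was at 21.9, 38.0, 39.6, 22.2 and 40.6 CPM. The endocardial value exceeded the endothelial value in 5 of 5 libraries, though the 2 ranges overlapped, with means of 47.9 ± 17.9 and 32.5 ± 9.56 CPM (SD, n = 5). Fibroblasts followed at 13.9 ± 3.86 CPM and cardiomyocytes at 8.67 ± 2.89 CPM (SD, n = 5), with overlapping ranges. Because these types are abundant, they held 29.7% and 27.0% of the Edn1 UMIs in the 10 types, beside 30.2% in endothelial and 11.4% in endocardial nuclei. Shares of a gene's UMIs below are also of those in the 10 types. Pericytes held 5 Edn1 UMIs and macrophages 1.

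The low Edn1 levels in fibroblasts and cardiomyocytes were set beside those of other types. Nuclei with at least 1000 UMIs were thinned to 1000, and those with fewer were left out, from 26 endocardial to 340 endothelial nuclei in the types named here. A UMI of Edn1 was then found in 4.34% of endocardial, 2.54% of endothelial, 1.34% of fibroblast and 0.741% of cardiomyocyte nuclei, against 0.0944% of pericytes and 0% of macrophages. Without thinning these shares were 7.69%, 4.804%, 3.25%, 5.75%, 0.229% and 0.0370%. The 10 endothelial markers together stood at 61.4 to 87.4 CPM in cardiomyocytes and 140 to 313 CPM in fibroblasts, against 8217 to 10770 CPM in endothelial nuclei. The 8 endocardial markers stood at 428 to 776 and 131 to 261 CPM, against 8248 to 12939 CPM in endocardial nuclei. Whether free RNA contributed to Edn1 in these nuclei was not tested.

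Ece1 (ENSMUSG00000057530, chromosome 4), the protease that cleaves the endothelin precursor, was also highest in endocardial nuclei. It was at 734, 661, 537, 719 and 855 CPM in endocardial nuclei and at 672, 529, 533, 461 and 598 CPM in lymphatic endothelial nuclei. The endocardial value was the higher in 5 of 5 libraries, with overlapping ranges and means of 701 ± 116 and 559 ± 79.9 CPM (SD, n = 5). Endothelial nuclei, at 186 ± 32.8 CPM, were 3.0-fold below the lymphatic nuclei and did not overlap them. Fibroblasts were at 139 ± 14.6 and pericytes at 82.1 CPM, and the lowest mean was that of cardiomyocytes, at 10.5 CPM. A UMI of Ece1 was found in 46.8% of endocardial and 38.4% of lymphatic nuclei thinned to 1000 UMIs, and in 1.31% of cardiomyocytes.

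The 2 endothelin receptors were carried by different cells. Ednra (ENSMUSG00000031616, chromosome 8), the contractile receptor, was at 472, 632, 491, 495 and 464 CPM in pericytes, the cells wrapped around capillaries. It was at 261, 231, 283, 305 and 354 CPM in smooth muscle and at 205, 169, 183, 186 and 158 CPM in cardiomyocytes. The 3 ranges did not overlap, and the order held in each of the 5 libraries, with means of 511 ± 69.0, 287 ± 46.4 and 180 ± 17.5 CPM (SD, n = 5). Fibroblasts were at 26.6 ± 4.90 CPM, 6.78-fold below cardiomyocytes, and the remaining types had means of at most 4.49 CPM. In nuclei thinned to 1000 UMIs, Ednra was seen in 38.5% of pericytes, 23.5% of smooth muscle nuclei and 15.2% of cardiomyocytes, against 0.192% of endothelial nuclei and 0.117% of macrophages. Unthinned, cardiomyocytes reached 55.6% at a median of 6997 UMIs per nucleus, and endothelial nuclei 0.506% at a median of 1938 UMIs.

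Ednrb (ENSMUSG00000022122, chromosome 14), the receptor that clears endothelin and signals to nitric oxide, was at 272, 231, 56.0, 169 and 200 CPM in endocardial nuclei and at 85.7, 245, 188, 146 and 203 CPM in macrophages. The 2 types could not be ordered: their means were 186 ± 81.8 and 174 ± 60.6 CPM (SD, n = 5), and endocardial nuclei were the higher in 2 of 5 libraries. Without the library labelled nTg female 1 the means were 164 and 196 CPM, with macrophages ahead. The endocardial value of Tg female 2, the shallowest library, lay below those of the other 4 libraries. The 8 endocardial markers summed to 8248 CPM there and to 10581 to 12939 CPM in the others, and their part in this value was not tested. Pericytes (87.5 ± 14.0), endothelial nuclei (76.6 ± 12.6) and lymphatic nuclei (64.0 CPM) followed with overlapping ranges. Smooth muscle held 0 UMIs of Ednrb in 520 nuclei, which allows a share of up to 0.577% of nuclei with a UMI (3 counts), and cardiomyocytes were at 0.751 CPM. Pericytes were the only type with a mean over 50 CPM for both receptors, and 213 of 2180 pericyte nuclei held UMIs of both. Ednrb was seen in 16.1% of pericyte nuclei with an Ednra UMI and 12.3% of those without, the former having a median of 2366 UMIs against 1900.

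**Figure D2:**
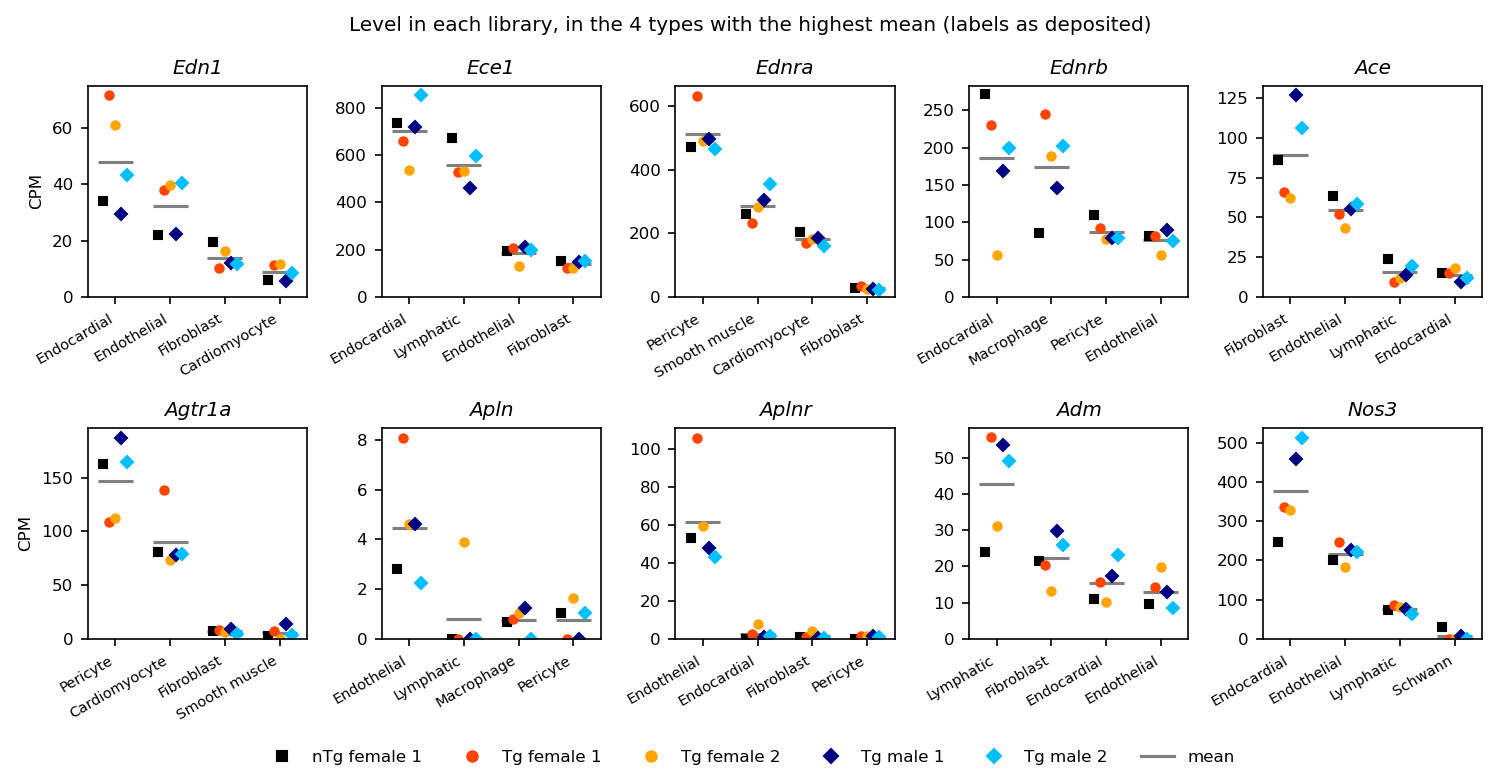
Level of each gene (vertical, CPM, axes starting at 0) in each of 5 libraries, in the 4 types with the highest mean (horizontal), with the mean as a grey line. Tg female 1 stands above the other libraries for Agtr1a in cardiomyocytes and Aplnr in endothelial nuclei, and Tg female 2 below them for Ednrb in endocardial nuclei.

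In the angiotensin system the converting enzyme and the receptor led in different types. Ace (ENSMUSG00000020681, chromosome 11) was at 86.2, 65.7, 62.0, 127 and 106 CPM in fibroblasts and at 63.1, 52.1, 43.3, 55.0 and 58.4 CPM in endothelial nuclei. Fibroblasts were the higher in 5 of 5 libraries, with means of 89.3 ± 27.3 against 54.4 ± 7.43 CPM (SD, n = 5) and ranges that overlapped only by the fibroblast value of Tg female 2 and the endothelial value of nTg female 1. Lymphatic and endocardial nuclei were at 15.5 and 13.7 CPM, and cardiomyocytes at 1.12 CPM. Fibroblasts held 75.1% of the Ace UMIs.

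Agtr1a (ENSMUSG00000049115, chromosome 13), the angiotensin II type 1 receptor gene, was at 163, 109, 112, 187 and 164 CPM in pericytes and at 81.2, 138, 73.3, 77.6 and 79.2 CPM in cardiomyocytes. Pericytes were the higher in 4 of 5 libraries, the exception being Tg female 1, and the means were 147 ± 34.8 and 89.9 ± 27.1 CPM (SD, n = 5). Tg female 1 was also the library with 0.524 CPM of Ccna2. Cardiomyocytes fell into 3 clusters, and Tg female 1 had the highest Agtr1a level in each of them (166, 136 and 108 CPM, against 76.2 to 83.9, 38.9 to 104 and 46.7 to 96.7 CPM in the other libraries). The smallest sums behind those ranges held 9 to 11 UMIs. Fibroblasts were at 6.84 and smooth muscle at 5.47 CPM, the latter from 10 UMIs. Smooth muscle and pericytes, which both carried Ednra, therefore differed in Agtr1a by ranges that did not overlap (0 to 13.5 against 109 to 187 CPM). Of the cardiomyocyte nuclei with an Ednra UMI, 46.0% also held an Agtr1a UMI, against 38.7% of the others, at median depths of 7830 and 5867 UMIs.

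Apelin and its receptor were both led by the endothelium. Apln (ENSMUSG00000037010, chromosome X) was scarce: endothelial nuclei held 70 of its 106 UMIs over all nuclei, at 2.81, 8.08, 4.61, 4.60 and 2.26 CPM. Every other type had a mean under 1 CPM. Aplnr (ENSMUSG00000044338, chromosome 2) was at 53.1, 106, 59.4, 47.6 and 43.2 CPM in endothelial nuclei, a mean of 61.9 ± 25.4 CPM (SD, n = 5). That was 24.0-fold above the next type, endocardial nuclei, and 92.4% of Aplnr UMIs were endothelial. Tg female 1 was the highest library for both genes. Of the 59 endothelial nuclei with an Apln UMI, 20 (33.9%) also held Aplnr, against 11.1% of the others, with median depths of 2613 and 1934.5 UMIs.

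Adm (ENSMUSG00000030790, chromosome 7), the adrenomedullin gene, was at 24.0, 55.9, 31.1, 53.7 and 49.1 CPM in lymphatic endothelial nuclei (89 UMIs in all). Fibroblasts were at 21.6, 20.5, 13.3, 29.9 and 25.8 CPM, below the lymphatic value in 5 of 5 libraries, with means of 42.8 ± 14.3 and 22.2 ± 6.21 CPM (SD, n = 5). Endocardial (15.5 CPM) and endothelial nuclei (13.05 CPM) came next with overlapping ranges. Fibroblasts held 60.9% of Adm UMIs. Among their 4 clusters, the cluster led by Grm8, Inmt and Fgf10 was at 37.8 ± 4.67 CPM, and the 3 others were at 13.9, 14.2 and 2.66 CPM. The lowest library in that cluster (33.8 CPM) lay above the highest in each of the others (at most 25.9 CPM).

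Nos3 (ENSMUSG00000028978, chromosome 5), the endothelial nitric oxide synthase gene, was at 247, 336, 328, 458 and 513 CPM in endocardial nuclei and at 202, 248, 183, 226 and 221 CPM in endothelial nuclei. Endocardial nuclei were the higher in 5 of 5 libraries, and the ranges overlapped only by the endocardial value of nTg female 1 and the endothelial value of Tg female 1. The means were 376 ± 107 and 216 ± 24.8 CPM (SD, n = 5). Lymphatic nuclei were at 76.2 ± 8.71 CPM, 2.84-fold below endothelial nuclei with no overlap, and every other type had a mean under 8 CPM. At 1000 UMIs per nucleus Nos3 was seen in 28.4% of endocardial, 19.0% of endothelial and 7.54% of lymphatic nuclei, and in 0.0926% of cardiomyocytes.

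The endothelium was not uniform in these genes. Its 7119 nuclei were clustered again without the 10 genes into 6 sub-clusters. Sub-clusters 4 (817 nuclei, led by Slc45a4 and with Prom1 and Fbln5) and 5 (572 nuclei, led by Cytl1, Dkk2) were arterial-like by their markers, and sub-cluster 2 (1865 nuclei, led by Col13a1 and with Nr2f2) was venous-like. The name is less clear for sub-cluster 5. It had 5 arterial markers raised, against 7 in sub-cluster 4, and also 3 venous markers, as many as sub-cluster 2. Its leading gene Cytl1 was among the endocardial markers used to name the types. Sub-clusters 0 (2708 nuclei, led by Kit and Nos2, with Car4), 1 (836 nuclei, led by Akr1c19 and Adam23) and 3 (321 nuclei, median depth 4315 UMIs) met no name.

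Edn1 was high in the arterial-like sub-clusters. It was at 87.5, 136, 157, 70.4 and 117 CPM in sub-cluster 4 and at 15.3, 118, 79.2, 66.0 and 165 CPM in sub-cluster 5. In sub-cluster 0 it was at 2.75 to 6.54 CPM, and every library of sub-cluster 4 lay above every library of sub-clusters 0, 1, 2 and 3. Ace followed the same division, at 139 CPM (131 to 148) in sub-cluster 4 and 160 CPM (127 to 214) in sub-cluster 5, against means of 22.6 to 43.7 CPM in the other 4, whose highest value in any library was 62.2 CPM. Nos3 was high in sub-cluster 5, at 604, 614, 496, 544 and 558 CPM. Its mean in sub-cluster 4 was 190 CPM, below the 255 CPM of the venous-like sub-cluster, so the 2 arterial-like groups did not share its level.

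Apln, Aplnr, Adm and Ednrb had their highest mean in sub-cluster 0. Apln was at 9.27 CPM there and 7.37 CPM in sub-cluster 3 (12 UMIs), at 0.496 and 1.83 CPM in sub-clusters 1 and 2, and both arterial-like sub-clusters held 0 UMIs. Adm was at 25.5 CPM in sub-cluster 0 (15.4 to 34.0) and at 2.8 and 2.6 CPM in the arterial-like groups (0 to 9.0 and 0 to 5.3). It was about as low in sub-cluster 1 (3.70 CPM) and the venous-like sub-cluster (6.06 CPM), and at 15.8 CPM in sub-cluster 3, so its low level was not particular to the arterial-like groups. Aplnr was at 93.7 CPM in sub-cluster 0 and 89.5 CPM in the venous-like sub-cluster, and at 2.7 and 4.5 CPM in the arterial-like groups, whose highest library was at 7.4 CPM. Ednrb was at 121 CPM in sub-cluster 0 (95.6 to 132) and at 20.1 and 13.5 CPM in the arterial-like groups, whose highest library was at 37.7 CPM. Endothelial nuclei with an Edn1 UMI held an Ednrb UMI in 7.02% of cases (24 of 342), against 12.5% of those without. Ece1 varied less, with means of 150 to 253 CPM over the 6 sub-clusters. The plot of sub-cluster levels shows both divisions in each library.

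**Figure D3:**
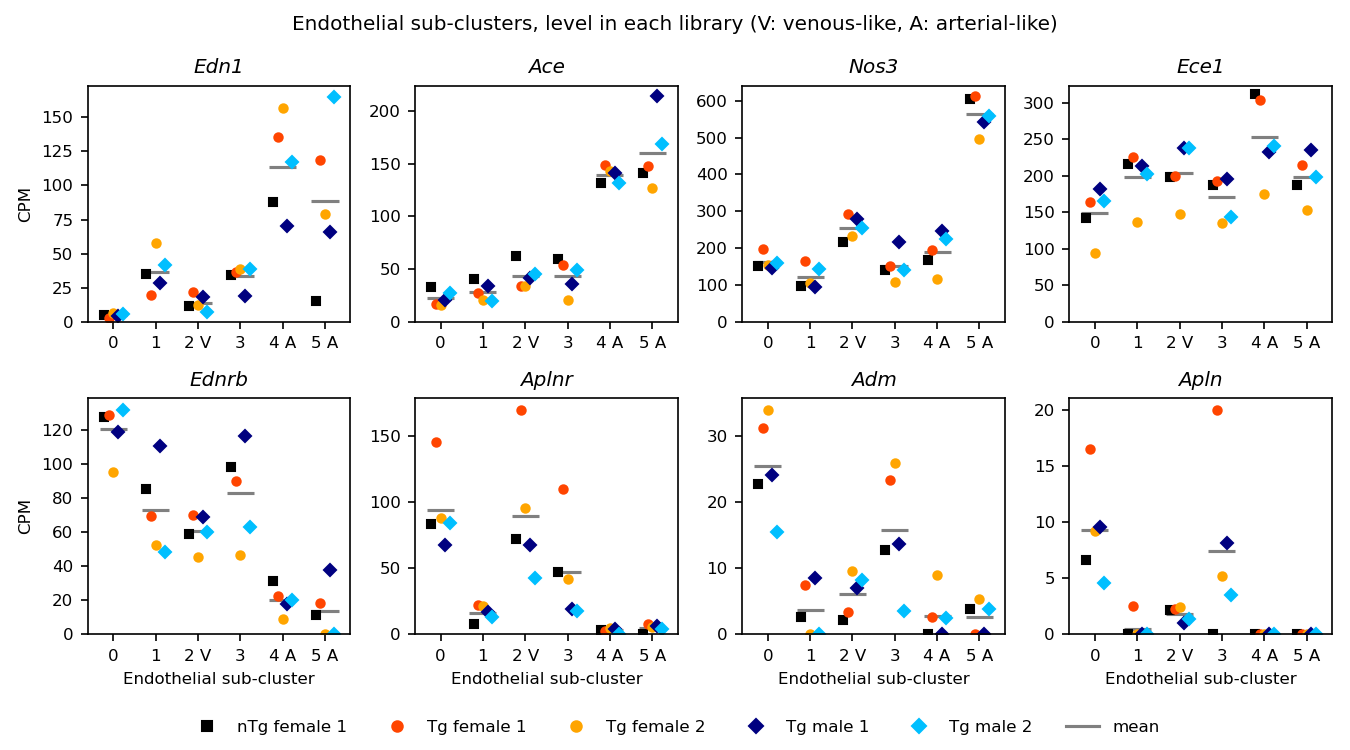
Level of 8 genes (vertical, CPM, axes starting at 0) in the 6 endothelial sub-clusters (horizontal; V venous-like, A arterial-like) in each of 5 libraries, with the mean as a grey line. Edn1 and Ace are high in sub-clusters 4 and 5, and Ednrb and Aplnr are low there, while Adm and Apln are low there and in sub-clusters 1 and 2.

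Other genes of the pathways, a list of 29, placed the partners of these 10 genes. In all, 20 of the 29 reached a mean of 10 CPM in some type, and pericytes led 6 of these, endothelial nuclei 4, fibroblasts 3, endocardial nuclei and smooth muscle 2 each, and cardiomyocytes, lymphatic nuclei and macrophages 1 each. The 9 that stayed under 10 CPM included the other endothelins (Edn2, Edn3), angiotensinogen (Agt), renin (Ren1), the other angiotensin receptors (Agtr1b, Agtr2), Apela, Adm2 and Nos1. The pericyte set included Enpep, an angiotensin-degrading enzyme (125 ± 28.9 CPM), and Mas1, the receptor gene for angiotensin 1-7 (32.6 ± 9.96 CPM). Both led narrowly, with overlapping ranges and in 3 of 5 libraries: Enpep was at 120 CPM in mesothelial nuclei, and Mas1 at 27.5, 23.6 and 22.0 CPM in endocardial, fibroblast and cardiomyocyte nuclei. The listed enzymes downstream of nitric oxide were highest in pericytes or smooth muscle. The guanylyl cyclase subunit Gucy1b1 was at 701 ± 52.6 CPM in pericytes and 315 ± 37.3 CPM in smooth muscle, and Gucy1a1 at 577 ± 35.0 and 663 ± 70.8 CPM (SD, n = 5). These enzymes were not confined to such cells: Prkg1, a kinase further downstream, was at 7115 ± 1055 CPM in pericytes. In endocardial nuclei Prkg1 was at 3914 CPM in nTg female 1 and a mean of 4192 CPM in the libraries labelled Tg. Gucy1a2 was at 1415 ± 238 CPM in pericytes, and in fibroblasts at 278 CPM in nTg female 1 and a mean of 306 CPM in those labelled Tg. Calcrl, the adrenomedullin receptor, was at 830 ± 275 CPM in endocardial nuclei and 667 ± 97.9 CPM in lymphatic nuclei, the type with the highest Adm. Its partner Ramp2 was at 481 ± 149 and 393 ± 103 CPM in these types. Within the endothelium Calcrl was at 1018 CPM in the venous-like sub-cluster and at 148 and 77.4 CPM in the arterial-like ones. Nos2, another nitric oxide synthase gene, was also highest in endothelial nuclei, at 29.6 ± 9.59 CPM, and at 59.3 CPM in sub-cluster 0. Gch1, which makes the cofactor of nitric oxide synthase, was at 71.5 ± 8.86 CPM in endothelial nuclei, and Cav1, the caveolin that binds Nos3, at 973 ± 149 CPM.

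For each gene the genes most alike over the 10 types were named by Pearson r of mean log2(CPM + 1), among 14703 genes compared. These are descriptions over 10 points from shared libraries. Nos3 was most like Icam2 (r = 0.99), an adhesion molecule of endothelium, and Edn1 most like Tmem100 (r = 0.96). Ednra was most like 4933431K23Rik (r = 0.99), Ednrb like Smagp (r = 0.98), Aplnr like Gm15984 (r = 0.99) and Agtr1a like Gm30624 (r = 0.96). Ece1 was most like Nsg1 and Ramp2 (r = 0.94 each), Ace like Gm11651 (r = 0.97), Adm like Smad5 (r = 0.97) and Apln like Gm48616 (r = 0.96).

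The second question was whether the pair labelled Tg female and the pair labelled Tg male differed in these genes. Sex cannot be told apart from any other difference between these pairs. The 4 libraries labelled Tg (2 female, 2 male) were compared in 8 types with the edgeR quasi-likelihood test on summed counts, over all genes of each type. The pair labelled Tg female joins Tg female 1, with 0.524 CPM of Ccna2 in cardiomyocytes, and Tg female 2, with 825 CPM, so Ccna2 varied within this group and its part in the differences was not tested. The value of nTg female 1 is given beside them. That library was unlike the Tg female pair in its clusters. Fibroblast cluster 0 held 29.6% of its fibroblasts, against 46.6% and 72.4% in Tg female 1 and 2 and 28.5% and 22.6% in Tg male 1 and 2. Of 41 combinations of gene and type tested, 0 passed an adjusted p of 0.05, against 0.176% of all 86912 tests. At an unadjusted p under 0.05 there were 9 of 41, 3 higher and 6 lower in females, where 7.86% of all tests reached this level. DESeq2 called 1 of the 41, and 0.764% of its 73201 tests with an adjusted p. The 41 include any combination without one. The log2 differences ran from -0.95 to 0.86 with a median of -0.01.

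The lowest adjusted p was that of Ace in fibroblasts. Tg female 1 and Tg female 2 were at 65.7 and 62.0 CPM and Tg male 1 and Tg male 2 at 127 and 106 CPM, so the sexes did not overlap. The log2 difference was -0.95 ± 0.17 (SE), with an edgeR adjusted p of 0.0832. The library labelled nTg female 1 lay between the sexes, at 86.2 CPM. The call changed with the processing. DESeq2 gave an adjusted p of 0.00210, the edgeR fit with a replicate block 0.0287 and without a filter on low counts 0.000243. Over all genes these fits called 0.764% (of tests with an adjusted p), 0.945% and 1.15% of tests, also more than the 0.176% above. The edgeR fits with RLE scaling, with doublets kept and without Tg male 1 did not call it. Nor did those with all 5 libraries, with or without the genotype label as a covariate. Without Tg female 1, Tg female 2 or Tg male 2 in turn the log2 difference was -1.04, -0.89 and -1.08. Both males lay above both females in 3 of the 4 fibroblast clusters, at 149 and 115 against 79.8 and 66.6 CPM in cluster 0, 108 and 94.4 against 51.4 and 50.3 CPM in cluster 1, and 141 and 121 against 63.6 and 64.3 CPM in cluster 2. In cluster 8 the values were 41.9 and 49.8 against 31.6 and 47.3 CPM, from 5 to 18 UMIs. The 10 endothelial markers in fibroblasts summed to 140 and 313 CPM in the females and 153 and 180 CPM in the males, with 0 of the 10 at 0. Their part in the Ace difference was not tested.

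**Figure D4:**
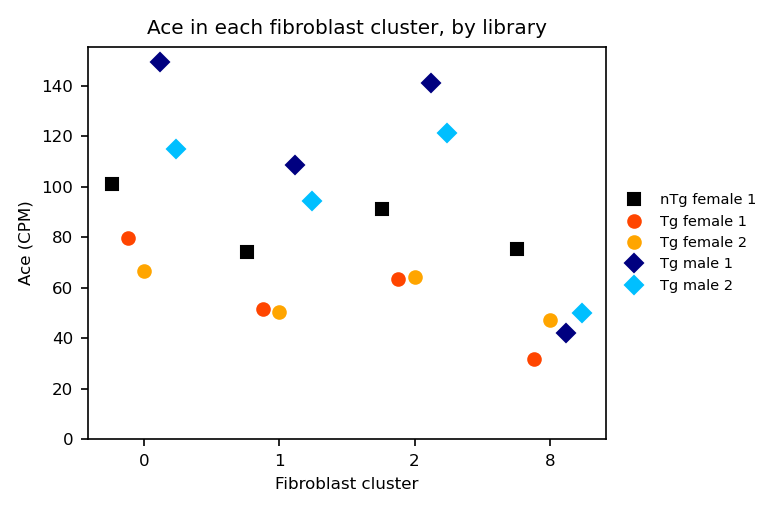
Ace level (vertical, CPM, axis starting at 0) in each of the 4 fibroblast clusters (horizontal), 1 point per library. In clusters 0, 1 and 2 both libraries labelled Tg male lie above both labelled Tg female, with nTg female 1 between them.

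Adm in fibroblasts was at 20.5 and 13.3 CPM in females and 29.9 and 25.8 CPM in males, a log2 difference of -0.79 ± 0.25 (SE, edgeR adjusted p = 0.326). The fibroblast cluster with high Adm made up 27.6% and 19.1% of the fibroblasts of Tg female 1 and 2, 44.4% and 49.4% of those of Tg male 1 and 2, and 41.2% of those of nTg female 1, whose Adm level was 21.6 CPM. Within that cluster the sexes overlapped, at 40.1 and 33.8 against 45.0 and 34.9 CPM. Without Tg female 1 the log2 difference was -1.20, and without a filter on low counts it was -0.80 (edgeR adjusted p = 0.0234). Apart from these fits, no alternative fit called it, DESeq2 and the replicate block included.

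In pericytes Agtr1a was at 109 and 112 CPM in females and 187 and 164 CPM in males, a log2 difference of -0.67 ± 0.20 (SE, edgeR adjusted p = 0.395). In nTg female 1 it was at 163 CPM, above both females and just below the lower male. Without Tg female 2 the log2 difference was -0.69, and no other alternative fit called it. In endocardial nuclei Edn1 was at 71.7 and 61.0 CPM in females and 29.5 and 43.2 CPM in males (log2 difference 0.86 ± 0.30, edgeR adjusted p = 0.509), and at 34.2 CPM in nTg female 1, inside the male range. Nos3 there was at 336 and 328 CPM in females against 458 and 513 CPM in males (log2 difference -0.60 ± 0.20, edgeR adjusted p = 0.485) and at 247 CPM in nTg female 1. The 10 endothelial markers in those endocardial nuclei summed to 4775 and 4955 CPM in females, 5786 and 5934 CPM in males and 4747 CPM in nTg female 1, with 0 at 0, and their part in these differences was not tested.

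Aplnr in endothelial nuclei was at 106 and 59.4 CPM in females and 47.6 and 43.2 CPM in males, a log2 difference of 0.82 ± 0.27 (SE, edgeR adjusted p = 0.372), with nTg female 1 at 53.1 CPM. The highest library was Tg female 1. Without Tg female 2 the log2 difference was 1.17, and without a filter on low counts the edgeR adjusted p was 0.0153. The remaining alternative fits did not call it. In sub-cluster 0, Aplnr was at 146 and 87.7 against 67.3 and 84.3 CPM, and in the venous-like sub-cluster at 170 and 95.6 against 67.7 and 42.3 CPM. The 2 sub-clusters made up 36.1% and 38.6%, and 26.6% and 22.5%, of female endothelial nuclei, and 40.9% and 38.2%, and 27.2% and 24.4%, of male ones. The remaining 3 combinations with an unadjusted p under 0.05 were Edn1 in cardiomyocytes (log2 difference 0.64), Ece1 in fibroblasts (-0.37) and Ednrb in lymphatic nuclei (-0.79), with edgeR adjusted p of 0.701, 0.470 and 0.771. The library labelled nTg female 1 was at 5.81, 149 and 96.1 CPM for these. Edn1 in cardiomyocytes was at 11.4 and 11.7 CPM in the females and 5.78 and 8.63 CPM in the males. Ece1 in fibroblasts was at 123 and 124 against 149 and 152 CPM, and Ednrb in lymphatic nuclei at 42.9 and 38.9 against 60.4 and 81.9 CPM. In the cardiomyocytes, 76.6% and 84.7% of the nuclei of Tg female 1 and 2 fell in cluster 4, while 91.5% and 94.4% of those of Tg male 1 and 2, and 88.3% of those of nTg female 1, fell in cluster 3.

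**Figure D5:**
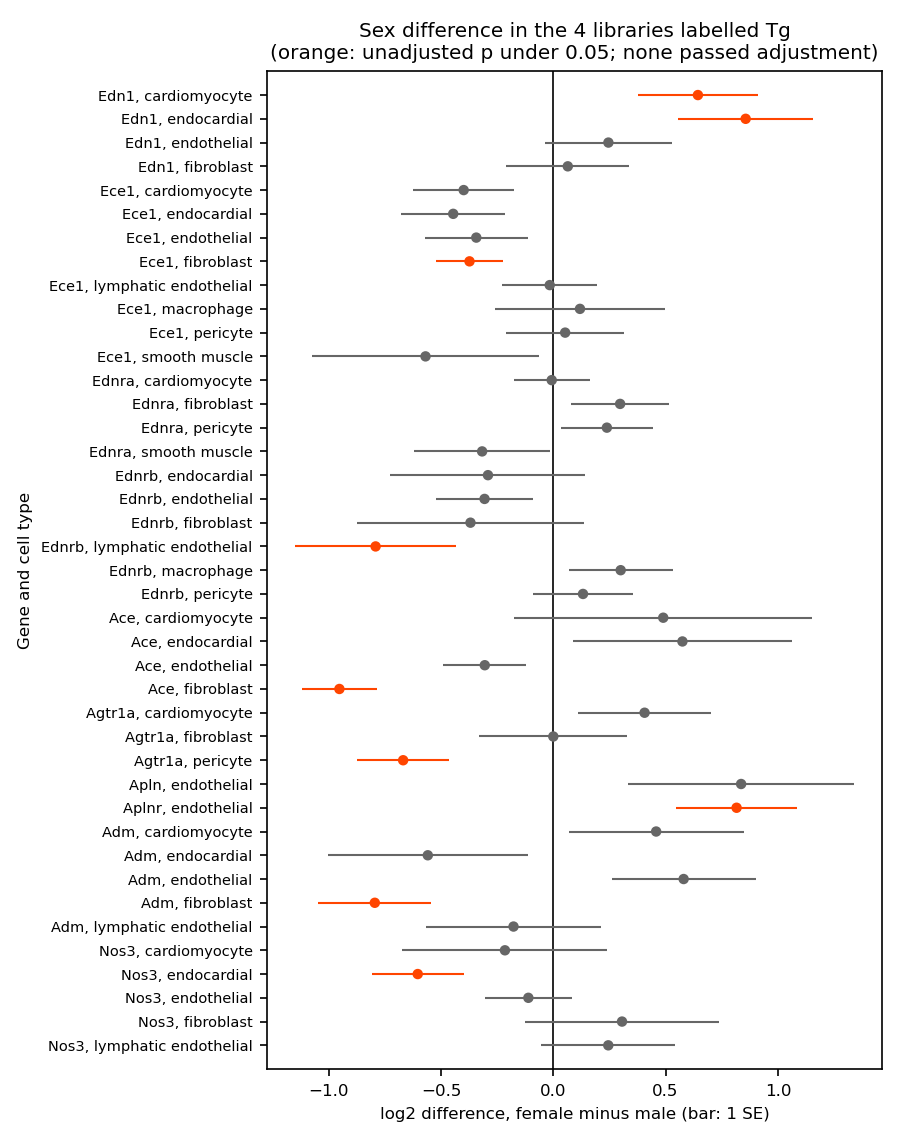
The log2 difference, female minus male (horizontal, with bars of 1 SE), for the 41 combinations of gene and cell type (vertical) tested in the 4 libraries labelled Tg. The 9 in orange have an unadjusted edgeR p under 0.05, and 0 of the 41 passed adjustment.

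In the list of 29 other pathway genes, 105 combinations over 23 genes were tested and 1 passed, against 0.176% of all 86912 tests. Ramp1, which turns Calcrl into a receptor for the vasodilator CGRP, was lower in female fibroblasts, where 0.354% of 15519 genes passed. It was at 1.68 and 3.69 CPM in females and 17.2 and 22.7 CPM in males, and at 2.89 CPM in nTg female 1. The log2 difference was -3.03 ± 0.37 (SE, edgeR adjusted p = 0.0373). Ramp1 was highest in smooth muscle (56.5 ± 8.20 CPM). The 7 smooth muscle markers summed in fibroblasts to 71.5 and 67.7 CPM in females and 73.9 and 62.5 CPM in males, with 0 at 0. Whether RNA from smooth muscle had a part in the Ramp1 difference was not tested. At an unadjusted p under 0.05 there were 19 of 105, 12 higher and 7 lower in females, where 7.86% of all tests reached this level. They included Gucy1a1 (mean 51.7 CPM in females against 24.9 CPM in males) and Gucy1b1 (51.3 against 29.1 CPM) in fibroblasts, with edgeR adjusted p of 0.178 and 0.267, and Mme, a protease that degrades vasoactive peptides, in fibroblasts (78.0 against 152 CPM, adjusted p = 0.138). The library labelled nTg female 1 lay between the sexes in each, at 36.2, 37.1 and 127 CPM.

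The library labelled nTg female 1 was set against the 4 labelled Tg without a test, since it stood alone. Of 35 combinations of gene and type with at least 10 CPM, 3 lay outside the range of the libraries labelled Tg and at least 2-fold from their mean, against 5.16% of all 81535 combinations. Ednrb in macrophages was at 85.7 CPM against a mean of 196 (146 to 245) CPM. Ece1 in macrophages was at 37.7 CPM against 18.0 (14.4 to 23.7) CPM, and Adm in pericytes at 11.3 CPM, from 11 UMIs, against 4.95 (1.63 to 8.94) CPM. The 8 macrophage markers summed to 14585 CPM in nTg female 1, against 10225 to 14685 CPM in the others. This type also held lymphocyte and MHC class II myeloid markers, whose part in the Ednrb and Ece1 values was not tested. In all 14 of the 35 lay outside the range at any distance, against 35.9% of all combinations, among them Nos3 in endocardial nuclei, at 247 CPM against 328 to 513 CPM. With Ccna2 present in this library and nearly missing in Tg female 1, the comparison follows labels and not measured transgene level.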

How the data were processed

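RNA of single nuclei from adult mouse hearts (10x Genomics) was taken as the deposited matrices of UMI counts per gene and barcode, made with Cell Ranger 7.0.0 per the file headers and on mm10 per the submitters' processing notes. The authors' counts are whole numbers without normalization. Whether introns were counted and which annotation was used are not given in the sources used here. Of 8 matrices, 3 had another column count than their own barcode lists (7583, 8896 and 11241 barcodes) and repeated every value of another library: nTg female 2 repeated Tg female 2 (8062 columns), nTg male 1 repeated Tg male 1 (8992) and nTg male 2 repeated Tg male 2 (8931). These 3 libraries were not analysed here.

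Barcodes with at least 200 genes and under 5% mitochondrial UMIs were kept, and doublets (7.63% to 11.4%) were removed with scrublet in scanpy 1.11.5. In Tg female 2 its automatic threshold marked 0%, so the median threshold of the other 4 libraries (0.149) was used. Nuclei were clustered (2000 variable genes, 30 components centred within library, 15 neighbours, Leiden resolution 1) without the 10 genes, the 29 other pathway genes and mitochondrial genes. Ccna2, Xist, Tsix, Uty, Ddx3y, Eif2s3y and Kdm5d were also left out, while other genes of the sex chromosomes stayed eligible. A cluster was named from at least 3 raised markers, leading the next type by 0.5 (log2). A rule leaving cycling clusters unnamed was set after seeing clusters. A cluster of 115 nuclei stayed unnamed and 12 adipocyte-like nuclei were left out. Counts were summed per type and library, and CPM computed from the sums. Shares of nuclei with a UMI were also taken after thinning to 1000 UMIs, without the nuclei that had fewer. Intervals and limits from counts cover counting error only.

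Sex was tested with edgeR 4.0.16 (quasi-likelihood, TMM, filterByExpr, Benjamini-Hochberg over all genes of a type), in types with 50 nuclei in each library. The SE given with an edgeR log2 difference is its size divided by the square root of the F statistic, an approximation not estimated by the fit. The test was also run on counts simulated from the cardiomyocyte sums of the libraries labelled Tg. Its outcome is not reported here, and no result above rests on it. DESeq2 1.42.0, other scalings, filters, libraries and clusterings were alternatives. The named genes are the 10 genes and the list of 29 whatever their values, and the 3 most alike genes. The genes and lists were chosen with earlier results of these data known. Promoters came from RefSeq and gene positions from GENCODE (GRCm38).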

Additional observations from a re-analysis of the deposited data

How the results depend on the processing

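The leading type was the same for all 10 genes at clustering resolution 0.5, with a minimum of 500 genes, with counts pooled over libraries and without each library labelled Tg in turn, and for 9 of 10 with doublets kept and without nTg female 1 (range 9 to 10). The exception was Ednrb, which macrophages then led (190 against 182 CPM with doublets kept). At sub-clustering resolution 0.3, 7 of 10 genes kept their leading endothelial sub-group, all but Ednra, Aplnr and Agtr1a. Of the 41 sex tests with 0 calls, DESeq2 called 1, edgeR without a filter 3 (of 78) and edgeR with a replicate block 1 (Ace in fibroblasts). Over all genes these fits called 0.764% (of tests with an adjusted p), 1.15% and 0.945% of tests, against 0.176%. Leaving out 1 library gave 0 to 4 calls: 4 without Tg female 1 (Ednrb in endocardial and Ece1 in endothelial nuclei, Adm and Ace in fibroblasts), 3 without Tg female 2, 0 without Tg male 1 and 1 without Tg male 2, where 3.31%, 1.48%, 0.921% and 0.666% of all tests were called, the lone sample being assumed to vary like the other sex. RLE scaling, doublets kept and all 5 libraries, with or without the genotype label as a covariate, gave 0. Deviations of same-numbered libraries correlated at -0.0187 to 0.130 over 8 types. Each value rests on a single difference per sex, so it cannot settle whether the replicate number pairs libraries. The block changed no other call among the 10 genes. The count of 3 combinations apart in nTg female 1 became 10 at 1.5-fold (12.6% of all combinations) and 6 against the libraries labelled Tg female alone (8.2%), and ran from 2 to 5 when 1 library labelled Tg was left out (5.53% to 6.32%). With 2 libraries per sex, small differences could not be told from spread, and Apln (106 UMIs) and the mesothelial and Schwann types (102 and 170 nuclei) had too few counts for an order.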
